A study of Mus musculus with 15 samples.

Results

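Total ribosome-protected fragments (RPFs) were compared between a pair of mouse embryonic stem cell (mESC) lines in which the tag sits on one or the other of the paralogs *Rps27* and *Rps27l*. The comparison used 6 of the 15 libraries of the series, namely total libraries of the *Rps27-FLAG* line (clones 2b12, 2c3 and 2c4, 3 in all) and of the *Rps27l-FLAG* line (clones 4a2, 4a3 and 4b7, also 3), taken from lysate before any FLAG pull-down. All cells were E14Tg2a.4 mESCs grown on gelatin in serum with leukemia inhibitory factor (LIF) and treated briefly with cycloheximide before lysis. *Rps27-FLAG* cells were homozygous for a 3xFLAG tag at the endogenous *Rps27* locus, and *Rps27l-FLAG* cells carried the same tag at the endogenous *Rps27l* locus, so the other paralog was untagged in each line. Each biological replicate was a separate clone, and the 3 clones of each line were prepared in library batches that the sample names mark as L1, L2 and L3, called batches 1, 2 and 3 here. Total libraries of 3 untagged wild-type (WT) clones (5a1, 5a2 and 5a3) were prepared in the same batches and serve as the background. IP libraries of the same 6 tagged clones (the FLAG pull-down of the same lysates) served as a second measurement of each clone. The question asked of the 6 libraries was which transcripts already differed between the tagged lines in the total footprints, against which any pull-down is read.

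*Rps27* and *Rps27l* encode almost identical proteins of the small (40S) ribosomal subunit, named eS27 and eS27L, and arose as copies of 1 ancestral gene. A cell can build its 40S subunits with either protein, and the paralogs are known to be used to different degrees in different cell types. An RPF is the short stretch of mRNA that a ribosome shields from nuclease, so the number of RPFs on a coding sequence rises with the amount of the mRNA and with how often it is translated. No matched mRNA libraries were analysed here, and mRNA amount and translation cannot be told apart. Likewise, in a bulk lysate fewer cells of a type and less RNA per cell cannot be told apart.

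The tags were placed by Cas9 cutting at the 3′ end of each coding sequence, and the guide RNAs are shown because they are the designed difference between the lines. Each guide is written 5′ to 3′ with the adjacent PAM, the genomic triplet Cas9 requires, in capitals.
Rps27 gRNA1: ttccaggatgctccttcaggAGG
Rps27 gRNA2: cttgtttaactggtagcaagTGG
Rps27l gRNA1: tctaaatgaacagcctgcaaAGG
Rps27l gRNA2: actaatgagctatgaagttcCGG
Each guide with its PAM had 1 match on the chromosome of its target (GRCm38.p6). Rps27 gRNA1 lay at chr3:90212737-90212759 on the minus strand, in the coding part of exon 4 of 4 of *Rps27* (itself on the minus strand) and 10 bases from the stop codon. The match of Rps27 gRNA2, at chr3:90212637-90212659 on the minus strand, lay 66 bases beyond the stop codon and outside the annotated transcript. Rps27l gRNA1 matched chr9:66949320-66949342 on the minus strand, in the coding part of exon 4 of 4 of *Rps27l* (on the plus strand) and 13 bases from the stop codon. Rps27l gRNA2 matched chr9:66949353-66949375 on the plus strand and spanned that stop codon.

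The 6 libraries held 6313827 to 8064166 deposited counts each, and the 10 transcripts with most counts took 3.16 to 3.75% of a library. Levels are given as normalized CPM, the counts of a library scaled to a common library size (CPM) with TMM factors. The cells carried the markers of naive mESCs: *Pou5f1* stood at 413 to 464 normalized CPM over the 9 total libraries, and *Nanog* at 598 to 689. The tag itself could not be checked from these counts. *Rps27* had 0 counts in every library under counting of unique alignments, which a transcript with a near-identical copy elsewhere can lose, and its level is unknown here. *Rps27l* had 133, 142 and 149 normalized CPM in replicates 1, 2 and 3 of *Rps27l-FLAG*, 146, 159 and 157 in *Rps27-FLAG* and 148, 149 and 149 in WT. These ranges overlapped, and the log2 difference between the tagged lines was -0.12 (SE 0.06, adjusted p = 0.354 by the edgeR quasi-likelihood test). Footprints on *Rps27l* were not shown to differ when the tag was on *Rps27l* rather than on *Rps27*.

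The clones of a line were not alike, and this bears on every value that follows. The first principal component of the 9 total libraries held 51.2% of the variance. Replicate 1 of *Rps27-FLAG*, *Rps27l-FLAG* and WT lay at -16.9, -22.1 and -18.1 on it, and replicate 2 of *Rps27l-FLAG* at -14.4, whereas the other 5 libraries lay between 6.54 and 18.0. The same 4 libraries were nearly without footprints on *Tet1*, a 5-methylcytosine oxidase that was singled out after its values were seen. *Tet1* had 2.43, 423 and 417 normalized CPM in replicates 1, 2 and 3 of *Rps27-FLAG*, 1.95, 2.10 and 422 in *Rps27l-FLAG* and 3.08, 428 and 431 in WT. Replicate 1 of *Rps27-FLAG* and replicates 1 and 2 of *Rps27l-FLAG* were therefore low, and the log2 difference of -1.57 between the lines did not pass the test (adjusted p = 0.41, edgeR). The imprinted growth-factor adaptor *Grb10*, also chosen after its values were seen, was low in other clones, at 36.3, 314 and 33.8 in *Rps27l-FLAG* against 314, 325 and 346 in *Rps27-FLAG* and 442, 297 and 374 in WT (log2 difference -1.70, adjusted p = 0.151). Y-linked counts varied by clone too: *Ddx3y* had 202, 786 and 4 counts in *Rps27-FLAG* and 1393, 54 and 2 in *Rps27l-FLAG*. The part of these clone differences in the results below was not tested.

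**Figure D1:**
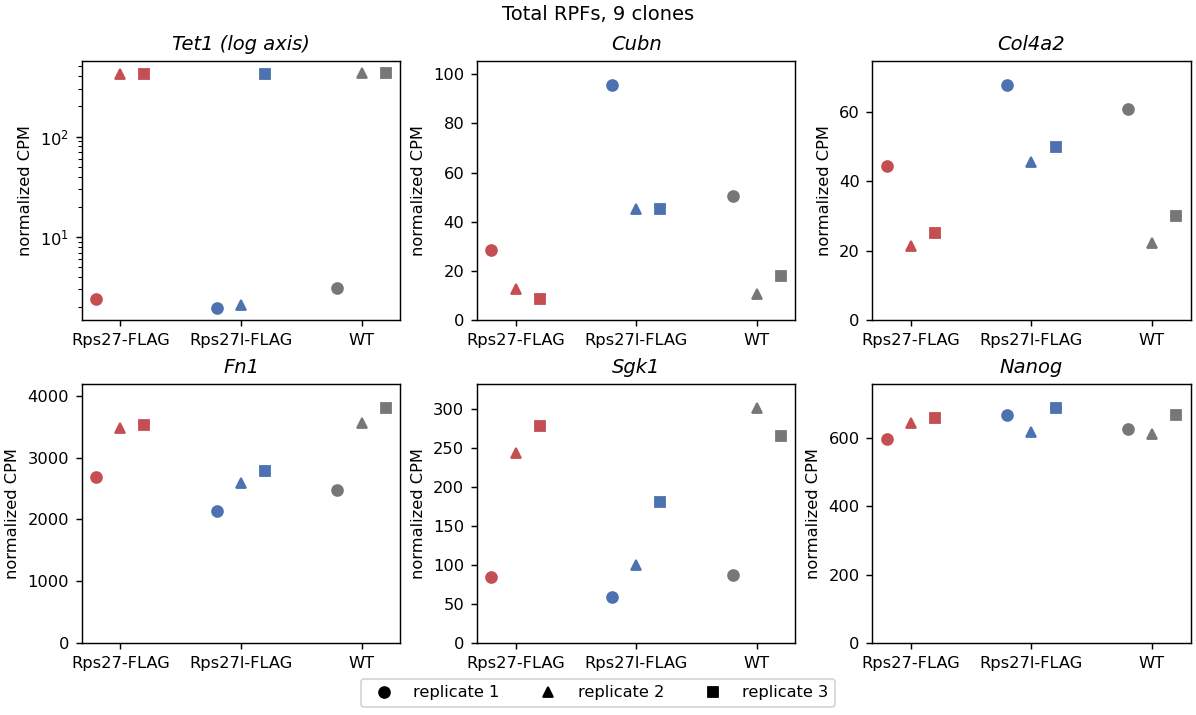
Normalized CPM of total RPFs (y axes, log axis for *Tet1* only) in each of the 9 clones, by line (x axes), with the marker shape giving the replicate. *Tet1* is near 2 or 3 in 4 clones and over 400 in 5, replicate 1 is the highest clone of each line for *Cubn* and *Col4a2* and the lowest for *Fn1* and *Sgk1*, and *Nanog* lies between 598 and 689 in all 9.

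Of 10085 transcripts tested, 137 differed between the tagged lines at an adjusted p under 0.05 (1.36% of those tested) when the batch was a block in the edgeR fit. Of these, 65 were higher in *Rps27l-FLAG* (0.645%) and 72 were lower (0.714%). They were a minority with modest differences: the median size was 0.50 on the log2 scale, 10 transcripts exceeded 1 and 69 stayed under 0.5. Their levels ran from 4.33 to 2865 normalized CPM over the 6 libraries, with a median of 76.2. Of the 137 adjusted p-values, 25 were under 0.01 and 60 were 0.04 or higher.

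The calls rested on the batch block, which was chosen with the counts with and without it known. The tagged clones of batch 2 did not pair in the data, as their deviations from the line means correlated at -0.164. Without it, as in the design of the study's methods, edgeR called 0 of 10085 transcripts (lowest adjusted p = 0.803, 580 transcripts at an unadjusted p under 0.05) and voom with limma also called 0 (577 at an unadjusted p under 0.05). With the block, 1540 transcripts were at an unadjusted p under 0.05 in edgeR, voom called 147 transcripts, 130 of them among the 137, and DESeq2 called 123, 98 of them among the 137. The 3 *Rps27l-FLAG* clones lay apart from the 3 *Rps27-FLAG* clones for 59 of the 137 called transcripts (32 higher and 27 lower), against 11.5% of all tested transcripts. The selection of the 137 in the same libraries favours this by construction. For the other 78 the lines overlapped unless clones were compared within a batch.

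**Figure D2:**
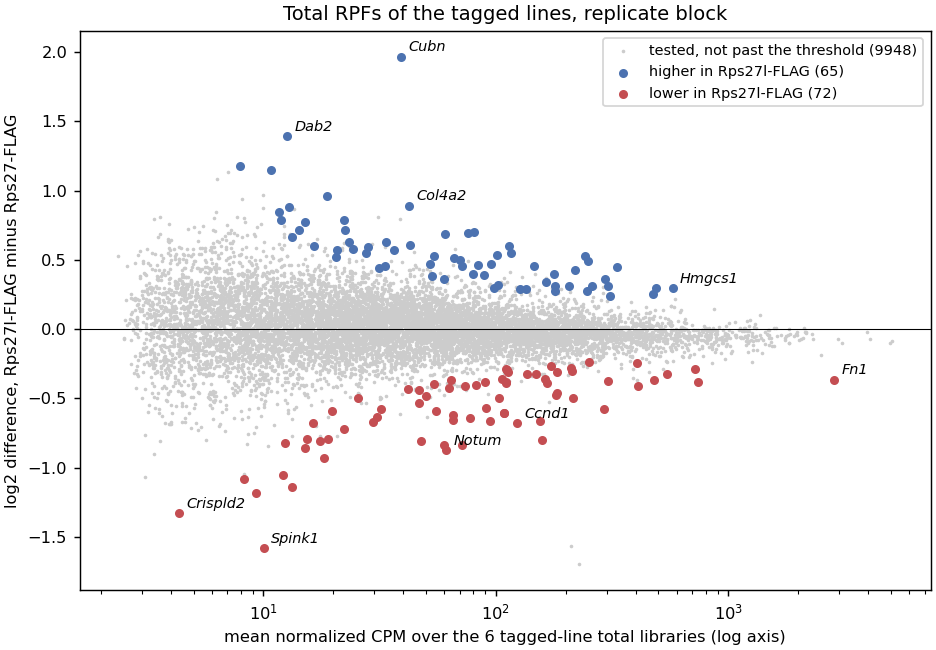
Log2 difference in total RPFs, *Rps27l-FLAG* minus *Rps27-FLAG* (y axis), against the mean normalized CPM over the 6 libraries (x axis, log axis) for the 10085 tested transcripts, with the 65 called higher and the 72 called lower in colour. Called transcripts occur from 4.33 to 2865 normalized CPM, and *Cubn* at 1.97 stands highest among them.

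The highest fold was that of *Cubn*, which encodes the endocytic receptor cubilin of visceral endoderm and other absorptive epithelia. *Cubn* had 95.8, 45.0 and 45.4 normalized CPM in replicates 1, 2 and 3 of *Rps27l-FLAG*, 28.5, 12.5 and 8.39 in *Rps27-FLAG* and 50.5, 10.5 and 17.9 in WT. The tagged lines did not overlap, replicate 1 was the highest clone of each line, and replicate 1 of WT reached the *Rps27l-FLAG* range. The log2 difference was 1.97 (SE 0.19, adjusted p = 0.000745, edgeR), or 62.1 ± 29.2 against 16.5 ± 10.6 normalized CPM (mean ± SD over 3 clones each). *Dab2*, a clathrin adaptor for endocytic receptors, had 28.2, 14.1 and 12.8 in *Rps27l-FLAG*, 10.6, 6.25 and 3.95 in *Rps27-FLAG* and 12.2, 4.78 and 7.77 in WT, so that every *Rps27l-FLAG* clone was above every other clone (log2 difference 1.39, SE 0.19, adjusted p = 0.00465). Of other parts of the same uptake machinery, *Lrp2* (megalin) was at 351 to 408 in *Rps27l-FLAG* and 355 to 427 in *Rps27-FLAG*. *Amn* (amnionless) had 9.37, 11.1 and 3.32 in *Rps27l-FLAG* against 9.07, 5.26 and 5.26 in *Rps27-FLAG*. Neither passed the test.

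*Col4a1* and *Col4a2*, which encode the paired chains of basement-membrane collagen IV, were also higher. *Col4a2* had 67.8, 45.5 and 49.8 normalized CPM in *Rps27l-FLAG*, 44.3, 21.2 and 25.2 in *Rps27-FLAG* and 60.9, 22.2 and 30.0 in WT (log2 difference 0.89, SE 0.14, adjusted p = 0.00743). The tagged lines did not overlap for *Col4a2*, although the highest *Rps27-FLAG* clone came close to the lowest *Rps27l-FLAG* clone. *Col4a1* had 112, 76.7 and 107 in *Rps27l-FLAG*, 90.0, 48.2 and 48.0 in *Rps27-FLAG* and 106, 41.9 and 59.6 in WT (log2 difference 0.70, adjusted p = 0.0327), and replicate 1 of *Rps27-FLAG* was above replicate 2 of *Rps27l-FLAG*. These neighbouring genes run in opposite directions on chromosome 8, at chr8:11198423-11312826 and chr8:11312805-11449287.

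*Cubn*, *Dab2*, *Col4a1* and *Col4a2* were the called members of a list of extraembryonic endoderm markers, of which 12 could be tested. Of the 12, 4 were called higher and none lower (33.3% called, against 1.36% of all tested), while 8 differences were above 0 and 4 below. The list's median log2 difference was 0.13 against 0.0034 over all tested transcripts. This list and those below were chosen with earlier results of these data known, which can raise the share called. The summed level of all 18 markers of that list was 3010 to 3445 normalized CPM in *Rps27l-FLAG*, 3099 to 3259 in *Rps27-FLAG* and 3240 to 3747 in WT. None of the 4 genes exceeded 112 normalized CPM in any of these libraries, so other members set the sum and it could hardly show a rise of the 4. The defining transcription factors of that lineage were too low for the test. *Gata6* had 5.60, 1.60 and 2.85 normalized CPM in *Rps27l-FLAG* and 1.92, 1.28 and 1.15 in *Rps27-FLAG*, from 43 counts at most. *Gata4* had 5.08, 3.58 and 2.05 against 1.66, 0.853 and 1.15, and *Sox17* 3.25, 1.23 and 1.11 against 1.28, 0.284 and 0.494. The *Rps27l-FLAG* clones were the higher ones of each batch for all 3 factors, but from counts near the floor. Some pairs were 13 against 9 counts (*Gata6*, batch 2) and 7 against 3 (*Sox17*, batch 3). Of all tested transcripts, 35% had within-batch ratios of one sign. The part of a few endoderm-like cells in the collagen and cubilin values was not tested.

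**Figure D3:**
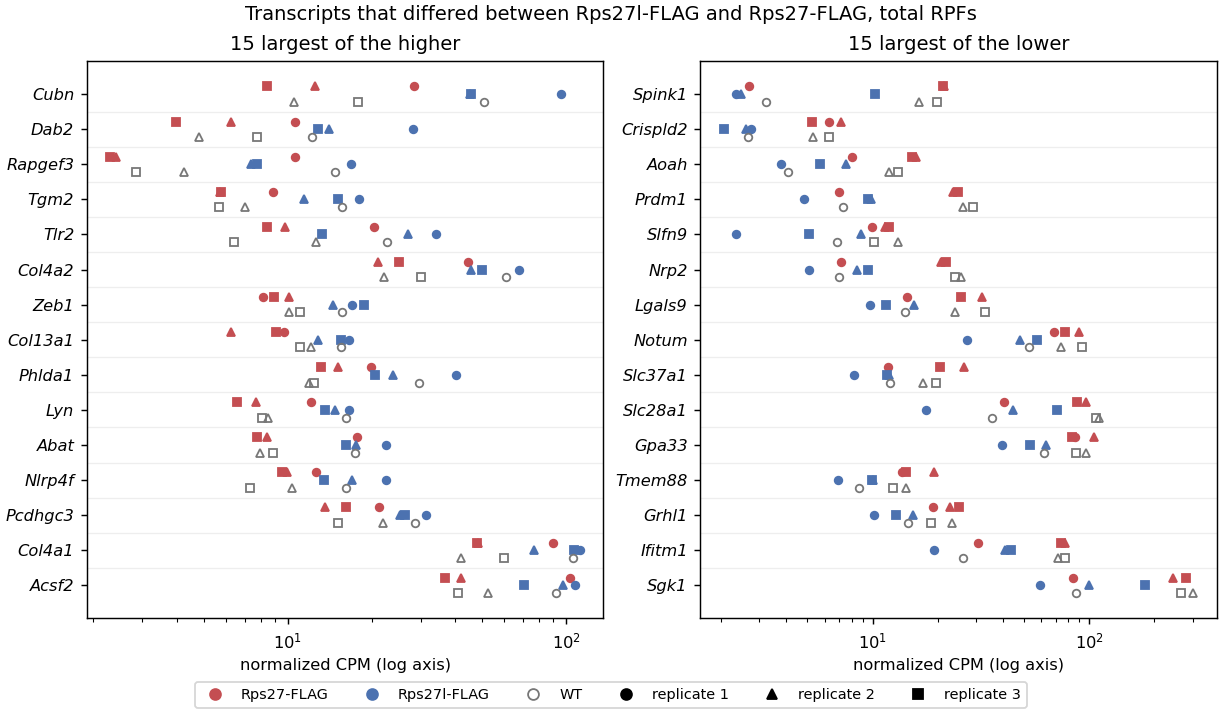
Normalized CPM of total RPFs (x axes, log axis) in each clone for the 15 called transcripts with the largest rise in *Rps27l-FLAG* (left) and the 15 with the largest fall (right). Filled red is *Rps27-FLAG*, filled blue *Rps27l-FLAG* and open grey WT, with circles, triangles and squares for replicates 1, 2 and 3. Within each marker shape the blue point lies to the right of the red point on the left panel and to the left of it on the right panel, while shapes of the same line are often further apart than the lines.

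The other 11 of the 15 largest rises had varied roles. *Tgm2*, a transglutaminase that crosslinks proteins, had 18.0, 11.5 and 15.2 normalized CPM in *Rps27l-FLAG* against 8.81, 5.69 and 5.76 in *Rps27-FLAG* (log2 difference 1.15, SE 0.21, adjusted p = 0.0215), with no overlap. *Rapgef3*, a cyclic-AMP-activated exchange factor for Rap, averaged 10.7 ± 5.40 against 5.11 ± 4.76 (SD over 3 clones each, log2 difference 1.18, adjusted p = 0.0374), and there replicate 1 of *Rps27-FLAG* exceeded replicates 2 and 3 of *Rps27l-FLAG*. *Tlr2*, a receptor for bacterial lipoproteins, differed by 0.96 (adjusted p = 0.0151) and overlapped too. *Zeb1*, a transcription factor of epithelial-to-mesenchymal transition, had 17.1, 14.6 and 18.8 against 8.17, 10.1 and 8.88 and 15.7, 10.1 and 11.1 in WT (0.88, adjusted p = 0.0353). The tagged lines did not overlap, and replicate 1 of WT lay in the *Rps27l-FLAG* range. *Col13a1*, a transmembrane collagen, differed by 0.85 (adjusted p = 0.0247), *Lyn*, a Src-family kinase, by 0.79 (adjusted p = 0.0472) and the protocadherin *Pcdhgc3* by 0.72 (adjusted p = 0.0366), each without overlap. The remaining rises among the 15 were those of *Abat* (0.78), which breaks down the transmitter GABA, *Nlrp4f* (0.72), an oocyte-enriched NLR-family gene, and *Acsf2* (0.70), an acyl-CoA synthetase. *Acsf2* was almost level in batch 1, where its log2 ratio was 0.06, and differed by 1.21 and 0.94 in batches 2 and 3.

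Genes that ERK signalling switches on, several of which damp the pathway in turn, were among the rises. FGF and other growth factors drive ERK in mESCs. Of 22 tested members of an ERK feedback and immediate early list, 5 rose (*Dusp6*, *Myc*, *Phlda1*, *Spry2* and *Spry4*) and 1 fell (*Mycn*), which is 27.3% of the list against 1.36% of all tested. Of the 22 differences 18 were above 0, against 5125 of 10085 over all tested, with a median of 0.19. *Dusp6*, the phosphatase that inactivates ERK, had 185, 118 and 108 normalized CPM in *Rps27l-FLAG*, 114, 74.0 and 81.1 in *Rps27-FLAG* and 157, 81.3 and 81.9 in WT (log2 difference 0.60, SE 0.08, adjusted p = 0.00465). Only replicate 1 of *Rps27-FLAG*, at 114, reached into the *Rps27l-FLAG* range. *Phlda1*, an ERK-induced gene, had 40.2, 23.9 and 20.5 against 19.9, 15.2 and 13.2 (0.79, adjusted p = 0.0280), without overlap. *Spry2* and *Spry4*, inhibitors of receptor tyrosine kinase signalling, differed by 0.36 (adjusted p = 0.0472) and 0.40 (adjusted p = 0.0481), and both overlapped between the lines.

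The *Myc* paralogs, which drive growth and proliferation, moved in opposite directions. *Myc* had 221, 165 and 122 normalized CPM in *Rps27l-FLAG* and 160, 102 and 107 in *Rps27-FLAG* (log2 difference 0.46, adjusted p = 0.0309). *Mycn* had 103, 195 and 170 against 161, 240 and 230 (-0.46, SE 0.07, adjusted p = 0.00780). WT stood at 214, 118 and 111 for *Myc* and at 148, 266 and 259 for *Mycn*, so replicate 1 of WT differed from the other WT clones by more than the tagged lines differed.

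Of 35 tested members of a naive and core pluripotency list, *Klf5* and *Tbx3* rose and none fell (5.71% called, against 1.36% of all tested), while 21 of the 35 differences were below 0 and the median was -0.05. *Klf5*, a factor that sustains self-renewal, had 616, 526 and 478 normalized CPM in *Rps27l-FLAG* against 534, 392 and 400 in *Rps27-FLAG* (0.30, adjusted p = 0.0262), and *Tbx3* had 339, 263 and 236 against 304, 151 and 155 (0.53, adjusted p = 0.0386). Replicate 1 of *Rps27-FLAG* was within the *Rps27l-FLAG* range for both genes. Among 19 formative and early differentiation genes 1 fell, *Grhl2* (5.26% called, against 1.36% of all tested), and the list's median was -0.13. The list's within-batch medians were -0.25, 0.079 and -0.098 in batches 1, 2 and 3, so batch 2 ran the other way. *Grhl2*, a regulator of epithelial junction genes, had 13.9, 18.0 and 15.2 against 20.2, 26.4 and 24.5 (-0.59, adjusted p = 0.0472), and its relative *Grhl1* had 10.2, 15.3 and 12.8 against 19.0, 22.7 and 25.0 (-0.81, SE 0.13, adjusted p = 0.0123). Neither gene overlapped between the tagged lines.

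Germline genes split. Of 26 tested genes that mESCs and somatic cells hold down by DNA methylation, *Dazl*, *Ddx4* and *Piwil2* rose and *Hormad1* fell (15.4% called, against 1.36% of all tested), with a list median of 0.11. *Dazl*, an RNA-binding protein of germ cells, had 90.9, 49.7 and 50.7 normalized CPM in *Rps27l-FLAG*, 66.5, 34.4 and 33.1 in *Rps27-FLAG* and 64.4, 31.0 and 33.0 in WT (log2 difference 0.53, SE 0.08, adjusted p = 0.00868). Replicate 1 was the highest clone in each line. The helicase *Ddx4* differed by 0.51 (adjusted p = 0.0383) and the piRNA-pathway gene *Piwil2* by 0.47 (adjusted p = 0.0450). *Hormad1*, a protein of the meiotic chromosome axis, had 64.2, 93.5 and 98.2 against 88.6, 149 and 125 (-0.50, adjusted p = 0.00868), and replicate 1 was there the lowest clone of each line. None of the 14 tested DNA methylation and demethylation enzymes passed the test, a list too small to tell from the 1.36% called over all transcripts.

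Among the 72 transcripts lower in *Rps27l-FLAG*, those of Wnt signalling included *Ccnd1* and *Notum*. The Wnt target list had 2 of 8 tested members lower (25% called, against 1.36% of all tested), none higher and a median of -0.33. *Ccnd1*, which encodes cyclin D1, had 71.1, 97.2 and 115 normalized CPM in *Rps27l-FLAG*, 97.2, 173 and 190 in *Rps27-FLAG* and 103, 156 and 176 in WT (log2 difference -0.68, SE 0.07, adjusted p = 0.00133). Every *Rps27l-FLAG* clone was below its batch partner, and the lowest *Rps27-FLAG* clone was level with the middle *Rps27l-FLAG* clone. *Notum*, a secreted enzyme that inactivates Wnt ligands, had 27.3, 47.9 and 57.5 against 68.5, 89.3 and 77.3 (-0.88, SE 0.13, adjusted p = 0.00723), without overlap. *Tmem88*, a membrane protein that binds the Wnt mediator Dishevelled, had 6.90, 9.99 and 9.96 against 13.7, 19.2 and 14.3 (-0.83, adjusted p = 0.0220), also without overlap.

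The largest falls were also of varied roles, from surface proteins to transcription factors. *Gpa33*, a cell-surface glycoprotein of the immunoglobulin superfamily, had 39.7, 63.0 and 53.3 normalized CPM in *Rps27l-FLAG*, 85.7, 105 and 83.2 in *Rps27-FLAG* and 61.6, 96.5 and 87.1 in WT (log2 difference -0.83, SE 0.10, adjusted p = 0.00223). The tagged lines did not overlap, and replicate 1 of WT fell in the *Rps27l-FLAG* range. *Ifitm1*, an interferon-induced membrane protein that is also a marker of early germ cells, averaged 34.5 ± 13.4 against 60.8 ± 26.1 (SD over 3 clones each), with log2 ratios of -0.68, -0.92 and -0.77 in batches 1, 2 and 3 (log2 difference -0.80, adjusted p = 0.00223), and *Ifitm2* differed by -0.32 (adjusted p = 0.0342). These were the 2 called members of 18 tested interferon-response genes (11.1%, against 1.36% of all tested), whose median was -0.24. *Prdm1*, the transcriptional repressor Blimp1, had 4.82, 9.87 and 9.48 against 7.02, 23.5 and 24.8 (-1.14, SE 0.17, adjusted p = 0.00755). *Nrp2*, a receptor for semaphorins and VEGF, had 5.08, 8.51 and 9.48 against 7.15, 20.6 and 21.7 (-1.05, adjusted p = 0.0174). In both, replicate 1 of *Rps27-FLAG* was in the *Rps27l-FLAG* range and the other 2 *Rps27-FLAG* clones were above it.

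The other large falls were less even. *Spink1*, a trypsin inhibitor, had 2.34, 2.47 and 10.3 normalized CPM in *Rps27l-FLAG*, 2.68, 21.3 and 21.1 in *Rps27-FLAG* and 3.22, 16.3 and 19.7 in WT (log2 difference -1.58, SE 0.34, adjusted p = 0.0449). Its values were near 2 or 3 in the same 4 clones that lacked *Tet1* footprints, and without replicate 2 of *Rps27l-FLAG* the difference was -0.92 (adjusted p = 0.0522, edgeR). *Crispld2*, a secreted protein, had 2.73, 2.59 and 2.05 against 6.26, 7.11 and 5.26 (-1.33, adjusted p = 0.0450), an even fall at a low level. *Aoah*, a lipase that inactivates bacterial lipopolysaccharide, differed by -1.19 (adjusted p = 0.0126), *Slfn9*, a Schlafen-family gene, by -1.09 (adjusted p = 0.0487) and *Lgals9*, the lectin galectin-9, by -0.93 (adjusted p = 0.0288). *Sgk1*, a serum-induced kinase, had 59.0, 100 and 181 against 84.4, 244 and 279 (-0.80, adjusted p = 0.0229), and its WT clones spanned 86.8 to 302. The transporters *Slc37a1* (-0.86, adjusted p = 0.0220) and *Slc28a1* (-0.84, adjusted p = 0.0161), which carry sugar phosphates and nucleosides, overlapped between the lines.

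Of the 8 called transcripts with the highest levels, *Fn1*, *Sptan1*, *Col18a1*, *Nop56* and *Gldc* were lower and *Hmgcs1*, *Klf5* and *Ncapd2* higher, all by under 0.4 on the log2 scale. *Fn1*, the matrix protein fibronectin, had 2128, 2595 and 2785 normalized CPM in *Rps27l-FLAG*, 2691, 3472 and 3521 in *Rps27-FLAG* and 2479, 3559 and 3804 in WT (log2 difference -0.37, SE 0.05, adjusted p = 0.00465), and the within-batch ratios of -0.34, -0.42 and -0.34 were close. *Fn1* is also a fibroblast marker, and with *Zeb1* it was 1 of 2 called among 8 tested on that list (25%, against 1.36% of all tested). The list's median was 0.03, with 4 differences above 0 and 4 below. Its summed level was 2654 to 3272 in *Rps27l-FLAG* and 3220 to 3960 in *Rps27-FLAG*, but *Fn1* alone made up most of that sum. *Sptan1*, the spectrin of non-erythroid membranes, had 702, 638 and 586 against 795, 898 and 824 (-0.38, adjusted p = 0.0460), without overlap. *Col18a1*, a basement-membrane collagen, differed by -0.29 (adjusted p = 0.0481), the opposite direction to *Col4a1* and *Col4a2*. *Gldc*, of the mitochondrial glycine cleavage system, differed by -0.37 (adjusted p = 0.0184). None of 33 tested members of the actin cytoskeleton list passed the test, a list too small to tell from the 1.36% called over all transcripts.

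Of 29 tested cholesterol synthesis genes, 2 passed the test, both higher (6.90%, against 1.36% of all tested), 24 of the 29 differences were above 0, and the list's median was 0.18. *Hmgcs1*, which makes HMG-CoA from acetyl units, had 595, 679 and 637 normalized CPM in *Rps27l-FLAG*, 520, 483 and 553 in *Rps27-FLAG* and 586, 565 and 541 in WT (log2 difference 0.30, SE 0.06, adjusted p = 0.0450), and *Idi1*, an isomerase of the isoprene units, had 196, 208 and 192 against 149, 157 and 177 (0.31, adjusted p = 0.0472). Neither overlapped, but the list's median was 0.011 in batch 1 against 0.34 and 0.24 in batches 2 and 3. *Pfkm*, a phosphofructokinase, rose by 0.40 (adjusted p = 0.0327) as the only called member of 29 glycolysis and hypoxia genes (3.45%), whereas 23 of the 29 differences were below 0 and the list's median was -0.08. The within-batch medians of the glycolysis and hypoxia list were -0.15, 0.076 and -0.15 in batches 1, 2 and 3.

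The edited genes encode ribosomal proteins, so the other ribosomal genes were read as a group. None of 72 tested cytosolic ribosomal protein transcripts passed the test, a number too small to tell from the 1.36% called over all transcripts, and 64 of the 72 differences were below 0, with a median of -0.05 and within-batch medians of 0.071, -0.094 and -0.12, so batch 1 ran the other way. Among 27 ribosome assembly factors and neighbours of eS27 in the 40S subunit, *Nop56* fell (3.70% called), none rose, 22 differences were below 0 and the median was -0.07. *Nop56*, a core protein of the snoRNPs that methylate ribosomal RNA, had 419, 440 and 590 normalized CPM in *Rps27l-FLAG* against 471, 665 and 684 in *Rps27-FLAG* (log2 difference -0.32, adjusted p = 0.0472), with overlap. None of 36 tested p53 targets, a list that includes p53 and *Rps27l* itself, passed the test (median -0.01), again too few to tell from the 1.36%.

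Several other lists held no call: mesoderm (3 tested), trophoblast (5), neural (8), imprinted genes (31), genes of the 2-cell-like state (3), Atf4 stress response (27), heat shock (25), histones (29) and S phase (43). Lists of these sizes were too small to tell no call from the 1.36% called over all transcripts. Cell adhesion had 1 of 30 lower (3.33%), the desmosome plaque protein *Pkp2* (-0.38, adjusted p = 0.0262). Lysosome and autophagy had *Ctsc* higher (0.63) and *Glb1* lower (-0.30) of 32 (6.25%), and G2/M phase had 1 of 54 higher (1.85%), the condensin subunit *Ncapd2* (0.26). In all, 31 of the 137 called transcripts belonged to a list and 106 to none.

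**Figure D4:**
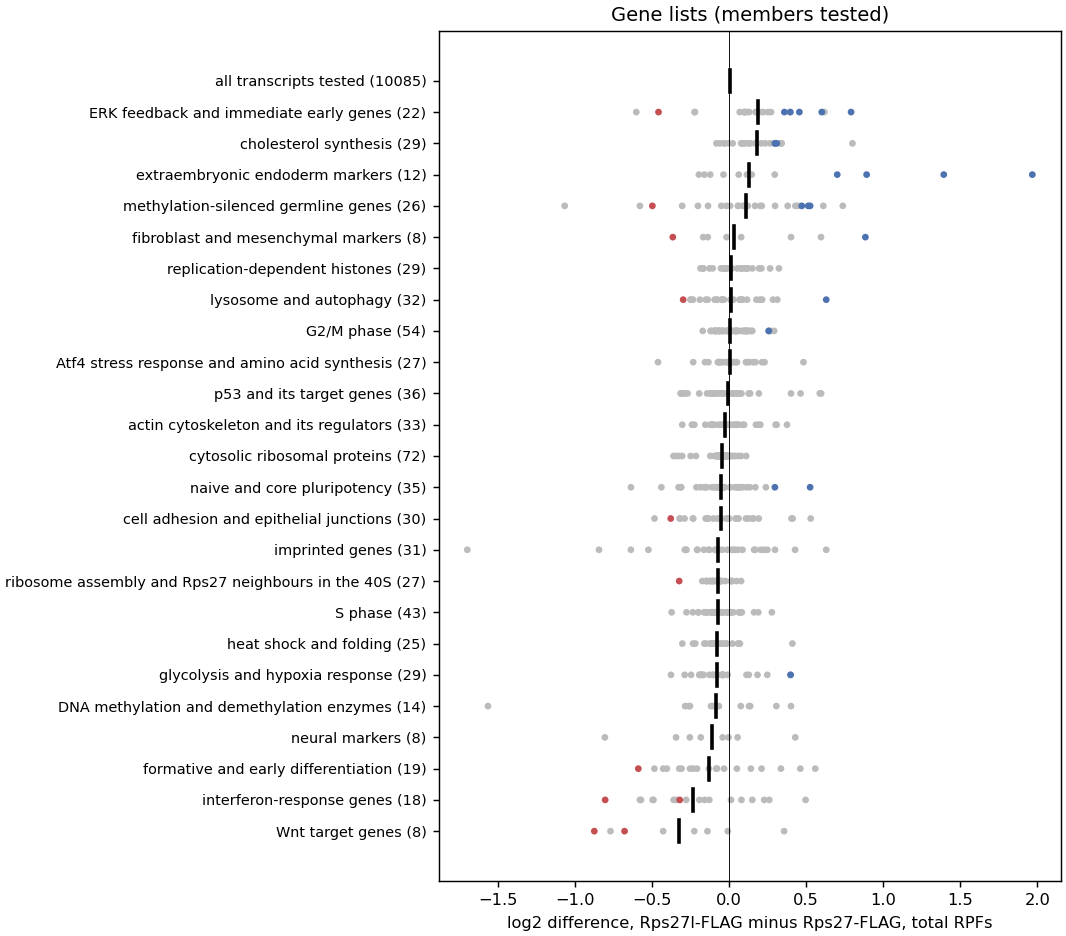
Log2 difference in total RPFs, *Rps27l-FLAG* minus *Rps27-FLAG* (x axis), of each tested member (points, called members in colour) and the median (bar) of each gene list with 8 or more members tested, the number tested standing in brackets. List medians lie between -0.33 (Wnt targets) and 0.19 (ERK feedback genes), and single called members lie well outside their list's other points for *Cubn* and *Dab2*.

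None of the tested neighbours of the edited loci passed the test. Of the nearest 2 protein-coding genes on each side of *Rps27*, *Rab13* differed by 0.71 (adjusted p = 0.182) and *Jtb* by 0.29 (adjusted p = 0.523), while *Tpm3* and *Nup210l* could not be tested. *Rab13* was low, at 7.94, 6.78 and 8.22 normalized CPM in *Rps27l-FLAG* and 7.02, 2.56 and 4.61 in *Rps27-FLAG*. Beside *Rps27l*, the differences were 0.04 for *Rab8b*, -0.09 for *Lactb* and -0.30 for *Tpm1* (adjusted p = 0.317), and *Aph1c* could not be tested. The median difference of a whole chromosome was at most 0.024 in size. Called transcripts had longer coding sequences than the rest, with medians of 2058 bases for the higher and 1794 for the lower ones against 1438.5 for all tested, and 122 of the 137 were among the 134 calls made after a trend with coding length was removed.

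Within batches, all 137 called transcripts had log2 ratios of one sign in the 3 clone pairs, against 35% of all tested, which the blocked test favours by construction. The transcripts called higher had median ratios of 0.34, 0.63 and 0.51 in batches 1, 2 and 3, and those called lower -0.43, -0.61 and -0.44. Batch 2, which pairs clone 4a3 with 2c3, gave the largest medians in both directions. It was also the only pair unlike in *Tet1*, at 2.10 normalized CPM in 4a3 and 423 in 2c3. The deviations of these clones from their line means correlated at -0.164 across transcripts, so they were not a matched pair. The part of this mismatch in the batch 2 ratios was not tested.

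**Figure D5:**
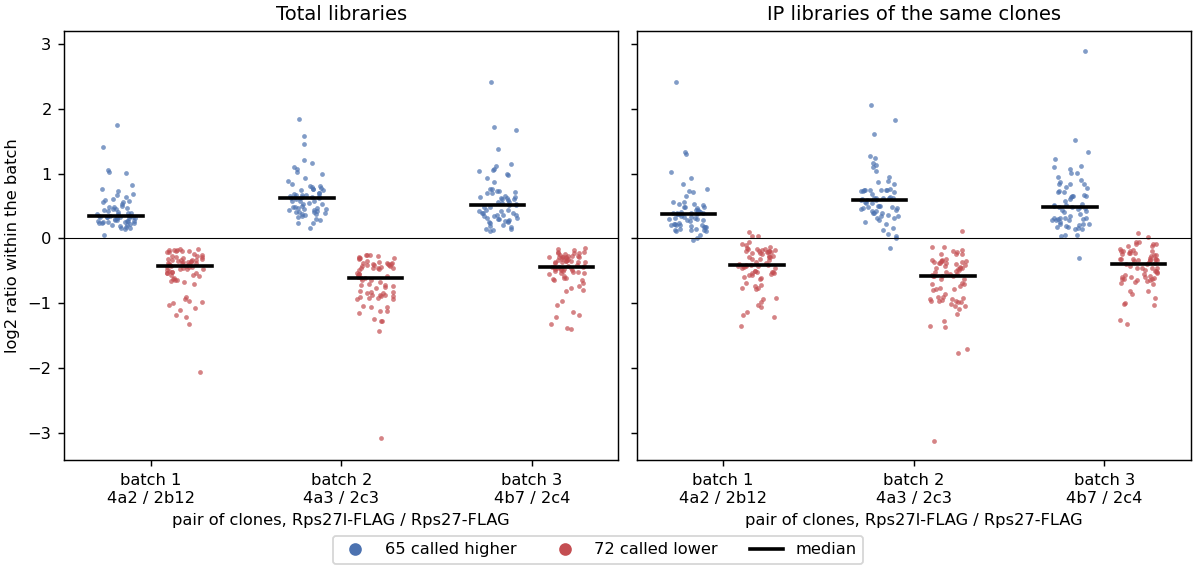
Log2 ratio of *Rps27l-FLAG* to *Rps27-FLAG* within each batch (y axis) for the 3 pairs of clones (x axis), for the called transcripts in total and in IP libraries. The median ratios of the higher and the lower calls are 0.34 and -0.43 in batch 1, 0.63 and -0.61 in batch 2, and 0.51 and -0.44 in batch 3 of the total libraries, and 133, 134 and 134 of the 137 keep their sign in the IP pairs of batches 1, 2 and 3.

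The called transcripts also separated the clones inside every line. Replicate 1 of WT differed from replicates 2 and 3 of WT by a median log2 of 0.55 for the transcripts higher in *Rps27l-FLAG* and of -0.59 for those lower, and the sign matched the line difference for 136 of 137 transcripts, against 69.8% of all tested. The same difference inside *Rps27-FLAG* had medians of 0.50 and -0.49, and inside *Rps27l-FLAG* of 0.31 and -0.47. The differences between untagged WT clones were therefore as large, over these transcripts, as the difference between the tagged lines.

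Set against WT, *Rps27l-FLAG* differed more over these transcripts than *Rps27-FLAG* did, with shared WT libraries in both comparisons. *Rps27l-FLAG* minus WT had medians of 0.32 and -0.45 for the higher and lower calls, and *Rps27-FLAG* minus WT of -0.16 and 0.05. The WT mean lay between those of the tagged lines for 105 of the 137 transcripts and was nearer to *Rps27-FLAG* for 110. These transcripts were chosen for their difference between the tagged lines. *Tet1* was low in replicate 1 alone of WT and of *Rps27-FLAG*, but in replicates 1 and 2 of *Rps27l-FLAG*. WT therefore matched *Rps27-FLAG* in this mix of clones, and the part of the mix in these values was not tested. *Cubn* differed from WT by 1.36 in *Rps27l-FLAG* (adjusted p = 0.00358) and by -0.61 in *Rps27-FLAG* (adjusted p = 0.683, both edgeR).

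The IP libraries of the same clones gave a second reading. There, 173 transcripts differed between the lines with the batch as a block (1.72% of those tested, 81 higher and 92 lower), and 0 without it (830 at an unadjusted p under 0.05, edgeR). The total and IP calls shared 78 transcripts, which were 56.9% of the total calls and 45.1% of the IP calls. All 137 transcripts called in total RPFs differed in the same direction in IP RPFs, against 71.3% of all tested, with medians of 0.49 and -0.50. Both libraries of a clone came from the same digested lysate and ribosome pellet, so culture, lysis and digestion were not repeated. By the study's methods, barcoded footprints were pooled within each replicate, so the later library steps and sequencing were shared too. The shared direction is therefore no independent repeat of the clones. *Cubn* differed by 2.34 in IP RPFs (SE 0.17, adjusted p = 2.14e-06), and *Pkp2* by -0.09 (adjusted p = 0.715).

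The number of calls depended on single clones. Leaving out replicate 1, 2 or 3 of *Rps27-FLAG* left 13, 10 or 32 calls, and leaving out replicate 1, 2 or 3 of *Rps27l-FLAG* left 389, 102 or 41. Replicates 1, 2 and 3 of WT, which enter only through the batch terms and the spread, gave 96, 75 and 81 when left out. All 137 transcripts kept their direction in these 9 fits, which their within-batch ratios of one sign favour by construction. *Ccnd1*, *Cubn*, *Gpa33*, *Ifitm1* and *Morc1* were called in all 9. *Morc1*, a chromatin protein that silences transposons in the male germline, was named for this reason after its values were seen, and had 69.1, 98.8 and 91.4 normalized CPM in *Rps27l-FLAG*, 109, 154 and 130 in *Rps27-FLAG* and 86.5, 137 and 137 in WT (log2 difference -0.60, SE 0.07, adjusted p = 0.00298). When all 3 lines of a batch were left out, 96, 75 and 9 transcripts were called without batches 1, 2 and 3, of which 55, 44 and 8 were among the 137.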

How the data were processed

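Monosome footprints of cycloheximide-treated mESCs were sequenced from 3 clones per line, as total RPFs (all lines) and IP RPFs (tagged lines). The deposited values are raw counts per transcript: the authors trimmed adapters (cutadapt 2.4), removed PCR duplicates by molecular identifiers (UMI-tools 1.0.1), discarded rRNA, tRNA and snRNA reads, aligned to GRCm38 transcripts (Bowtie2 2.3.4.3, tool versions per the submitters' processing notes), kept unique alignments, and counted A sites over coding sequences without their first 15 and last 5 codons. Unique alignment removes reads of near-identical copies.

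From these counts, transcripts over 2 CPM in at least 14 of 15 libraries were kept, which left 10085 of 21727 (13 mitochondrial ones were left out). edgeR 4.0.16 (R 4.3.3) was used with TMM factors over the 9 total libraries, a term per line and the batch as a block, a quasi-likelihood test and Benjamini-Hochberg adjustment over all 10085. The study's methods fit no block: that fit, voom with limma 3.58.1, DESeq2 1.42.0, other filters and leave-outs were the alternatives. IP libraries were fitted alike. Standard errors are those of log2 differences, and 0.5 counts were added before log2 of single libraries. Symbols and positions came from GENCODE M21 (21723 of 21727 transcripts matched, 4 did not), guide sites from the RefSeq GRCm38.p6 sequence, and cell-cycle lists from Seurat 5.3.0. No column of sample values was left out. Replicates of a line differed by 1.78 to 10.3 times sampling noise (chi-square per degree of freedom), so none was a duplicate. The scripts were tested on simulated data.

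The batch and the replicate number are the same label. Deviations from the line means of *Rps27-FLAG* and *Rps27l-FLAG* clones of the same batch correlated across transcripts at 0.504, -0.164 and 0.487 in batches 1, 2 and 3. The tagged clones thus paired in batches 1 and 3 only. In batch 2 the WT clone correlated at 0.321 with *Rps27-FLAG* and at -0.040 with *Rps27l-FLAG*. The block was kept, a choice made with the counts with and without it known.

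Named transcripts were *Rps27* and *Rps27l*, the 15 largest differences in each direction among calls with within-batch ratios of one sign, the 8 calls with the highest levels, every called member of a gene list and the nearest protein-coding neighbours of both loci. The comparison, the block, the lists and the members were chosen with earlier results of these data known.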

Additional observations from a re-analysis of the deposited data

Results flagged for a closer look

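Total and IP libraries were fitted jointly with the clone as a block (edgeR quasi-likelihood test of the line-by-fraction term). The difference between *Rps27l-FLAG* and *Rps27-FLAG* itself differed between IP and total RPFs for 183 of 10085 transcripts, among them 6 of the 137 called in total RPFs. The IP minus total change of the log2 line difference was 0.192 for *Hmgcs1*, 0.1738 for *Gldc*, 0.1936 for *Cpt1a*, which admits fatty acids to mitochondria, 0.2945 for *Pkp2*, 0.1516 for *Prpf19*, a splicing factor, and -0.2693 for *Ppp2r5a*, a regulatory subunit of the phosphatase PP2A. For *Hmgcs1* and *Cpt1a*, the rise in *Rps27l-FLAG* was larger in the pull-down (0.48 and 0.60) than in the total footprints (0.30 and 0.43). The falls of *Gldc* and *Pkp2* were smaller in the pull-down (-0.20 and -0.09 against -0.37 and -0.38). The 137 were chosen for their difference in total RPFs, which by itself favours smaller differences in the IP libraries. The adjusted p of these interaction terms ran from 0.00211 to 0.0415. Groups of 3 clones were too small for a test of single outlying clones.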

How the results depend on the processing

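The count of 137 calls fell to 0 without the replicate block in edgeR and in voom with limma, and over the 6 tagged libraries alone it was 75 with the replicate block (72 of them among the 137) and 0 without it. With no filter on low counts 473 of 17353 transcripts were called. Leaving out single libraries gave 10 to 389 calls, and leaving out a whole batch, a choice made after seeing the data, gave 9 to 96, among them 75 without replicate 2 and 9 without replicate 3 of all lines. The remaining alternatives (DESeq2, other size factors, TMM over 15 libraries, other filters, mitochondrial transcripts kept, coding length removed, voom with the block) gave 106 to 147 calls. The IP count of 173 became 0 without the replicate block and 105 to 278 with single libraries left out. The largest chromosome median, 0.0235 in size, was 0.0378, 0.0402 and 0.0326 in the single pairs of batches 1, 2 and 3. The direction of the tested 137 calls was the same in every one of these fits, which their within-batch ratios of one sign favour by construction. The uncalled neighbours changed sign in some: *Lactb* ranged from -0.35 to 0.13 with single libraries left out and was 0.073 without replicate 1 of all lines, and *Rab8b* ranged from -0.096 to 0.24 with single libraries left out, with -0.081 and -0.041 without replicates 2 and 3 of all lines. The causes were not tested. With 3 clones per line and counts near the filter for the lowest calls, small differences at low levels were not detectable.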

Other observations

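A looser filter (over 2 CPM in 3 of the 9 total libraries, 11101 transcripts) gave 3 calls among transcripts that the stricter filter removes, named after their values were seen. They were *Srgn*, a proteoglycan of secretory granules (log2 difference 1.72), the endoderm transcription factor *Gata4* (1.55) and *Palm2* (-1.69). *Gata4* was over 2 normalized CPM only in the 3 *Rps27l-FLAG* libraries (5.08, 3.58 and 2.05). It thus passed this filter only through the line where it was high, which favours a call. Of the 137 transcripts, 103 were called under the looser filter.

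Without batch 2, in which clone 4a3 is paired with 2c3, 75 of 10085 transcripts were called. Of these, 31 are not among the 137, and a few are given here after their values were seen. Leaving out a clone after seeing its values favours calls of genes for which that clone went the other way. *Grb10* then differed by -3.23 (adjusted p = 7.07e-12, edgeR). The fit leaves out clone 4a3, at 314 normalized CPM against 36.3 in 4a2 and 33.8 in 4b7, so this p-value is no support for a line difference. The tight-junction genes *Cldn6* and *Cldn7* differed by -0.98 and -0.66, the adhesion molecule *Epcam* by -0.40 and the splicing regulator *Esrp1* by -0.93. *Dppa3*, a germ-cell and oocyte factor, differed by -1.58, the Wnt effector *Lef1* by -0.77 and the DNA methyltransferase *Dnmt3b* by -0.50, while the imprinted *Zrsr1* and *Cdkn1c* were higher, by 1.23 and 0.52. In clone 4a3 some of these genes stood apart from the other *Rps27l-FLAG* clones, which leaving 4a3 out selects for. *Esrp1* had 47.1 and 21.8 normalized CPM in 4a2 and 4b7 and 83.4 in 4a3, against 61.7 to 73.5 in *Rps27-FLAG*. *Epcam* had 310 and 328 against 414 in 4a3 and 415 to 437 in *Rps27-FLAG*.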
